A study of Mus musculus with 6 samples.

Results

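Of peripheral nerve, 35 genes were followed in RNA from mouse aorta, out of 47643 genes in the count table. They were taken by name from a list: 13 genes of Schwann cells, 4 of noradrenergic neurons, 3 of cholinergic neurons, 11 that most neurons share, and 4 further genes with neuronal roles. The genes were grouped and listed with the difference between treatments in these same libraries already known, so that difference is given for them as a description, without a p-value. All 35 gene IDs were found in the table, and 32 had enough counts to enter the fit across genes. Chat, Slc18a3 and Nefh did not.

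Every animal carried the Apoe-/- genotype, which removes apolipoprotein E and leads to high plasma cholesterol and atherosclerosis. The EPO group (n = 3 libraries) received recombinant human erythropoietin by intraperitoneal injection at 5000 IU/kg/day, and the Vehicle group (n = 3 libraries) received saline by the same route. Both courses lasted 4 weeks, after which the aorta was taken. Sex, age, atherogenic diet and a group without the Apoe deletion are not given in the labels. They also do not say whether each library came from 1 animal or from a pool, so any spread between libraries may be partly technical.

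The aorta is innervated mainly by postganglionic sympathetic fibres that run in its adventitia. Their cell bodies lie in ganglia outside the vessel, and most of a neuron's RNA stays in the cell body, while the Schwann cells that wrap or accompany the fibres have their nuclei in the nerve itself. Noradrenaline is made in successive steps by tyrosine hydroxylase (Th), DOPA decarboxylase (Ddc) and dopamine beta-hydroxylase (Dbh), and is loaded into vesicles by the transporter Slc18a2. A cholinergic neuron makes acetylcholine with choline acetyltransferase (Chat), loads it with Slc18a3 and takes choline back up with Slc5a7.

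The libraries held between 23278649 (Vehicle 1) and 38502430 (EPO 1) counts. Levels are given as CPM, the count of a gene scaled to the effective size of its library, and 3 counts, the limit that a count of 0 allows, correspond to 0.0837 CPM in EPO 1 and to 0.130 CPM in Vehicle 1. A gene was called where edgeR's quasi-likelihood test gave it a Benjamini-Hochberg adjusted p under 0.05, with the adjustment made over 16522 genes. That test called 3804 genes (23.0% of those tested), of which 2133 (12.9%) were higher and 1671 (10.1%) lower with EPO. Over all of them the median log2 fold change was 0.01. In the aorta as a whole, fewer cells of a type and less RNA per cell cannot be told apart.

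The library Vehicle 3 stood apart for many of the neuronal genes. The members were listed with the difference between treatments known, and a gene high in a single Vehicle library can owe its difference to that library. The shares below therefore describe the members and are not independent of how they were chosen. It was the highest of the 6 libraries for 22 of the 32 tested members, against 1588 genes (9.61%) of all tested. Its CPM was at least 5 times the mean of Vehicle 1 and Vehicle 2 for 12 of the 32, against 88 genes (0.533%) of all tested. Those 12 were Th, Nefl, Snap25, Dbh, Syt1, Ddc, Nefm, Prph, Sv2c, Gap43, Tubb3 and Hpca, with ratios between 5.004 (Hpca) and 40.6 (Th). None of the 13 Schwann cell genes was among them, and the ratios of these ran from 0.571 to 1.67 with a median of 1.25. Of 26 tested genes in a list of other myelin and Schwann cell genes, described below, 3 did reach 5 times. That list also holds genes of the axon, such as Cntnap2, so it does not stand for Schwann cells alone. Results that rest on Vehicle 3 are therefore given with and without it.

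**Figure D1:**
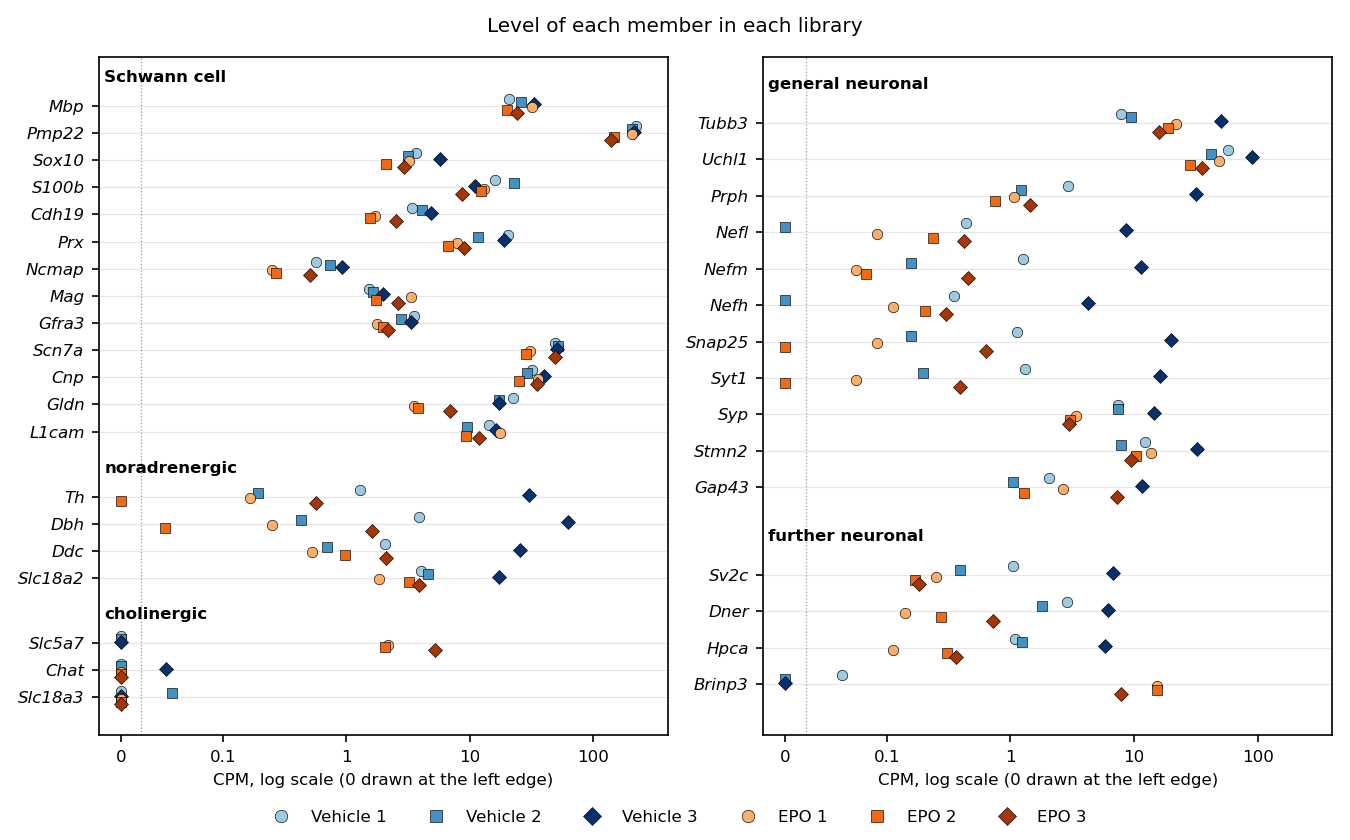
CPM of the 35 members in each library on a log axis with 0 drawn at the left edge, 1 row per gene by class, with Vehicle libraries in blue and EPO libraries in orange. Vehicle 3 lies to the right of all other libraries for most noradrenergic and general neuronal genes, and within or near the other Vehicle libraries for the Schwann cell genes.

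Promoter stretches of 250 bases before the start site are shown for the gene that begins noradrenaline synthesis (Th), a gene of neuronal filaments that followed it across libraries (Prph), the choline transporter (Slc5a7) and Brinp3, since these 4 carry the opposite patterns described further on. They are from RefSeq on GRCm38.p6 (mm10) and read 5′ to 3′ on each gene's strand. They lie at chr7:142899996-142900245 on the minus strand (Th), chr15:99054924-99055173 on the plus strand (Prph), chr17:54299035-54299284 on the minus strand (Slc5a7) and chr1:146495379-146495628 on the plus strand (Brinp3, the first of its 3 RefSeq starts by coordinate). Capitals mark a cyclic AMP response element in Th and the TATA-box letters in Prph and Slc5a7.
Th: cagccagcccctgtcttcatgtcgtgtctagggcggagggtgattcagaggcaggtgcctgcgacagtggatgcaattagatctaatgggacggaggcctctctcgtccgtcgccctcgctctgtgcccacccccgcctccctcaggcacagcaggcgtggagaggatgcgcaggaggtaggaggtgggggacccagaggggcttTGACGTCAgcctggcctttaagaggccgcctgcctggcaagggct
Prph: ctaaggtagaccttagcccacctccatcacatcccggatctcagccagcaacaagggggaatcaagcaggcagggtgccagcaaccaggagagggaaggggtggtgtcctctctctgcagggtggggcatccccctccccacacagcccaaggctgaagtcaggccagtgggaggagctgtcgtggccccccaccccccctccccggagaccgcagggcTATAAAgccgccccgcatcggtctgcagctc
Slc5a7: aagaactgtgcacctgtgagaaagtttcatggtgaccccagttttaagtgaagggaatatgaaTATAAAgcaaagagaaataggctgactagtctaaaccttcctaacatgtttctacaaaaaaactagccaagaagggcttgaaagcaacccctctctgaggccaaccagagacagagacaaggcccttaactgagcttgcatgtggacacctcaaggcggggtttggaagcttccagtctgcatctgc
Brinp3: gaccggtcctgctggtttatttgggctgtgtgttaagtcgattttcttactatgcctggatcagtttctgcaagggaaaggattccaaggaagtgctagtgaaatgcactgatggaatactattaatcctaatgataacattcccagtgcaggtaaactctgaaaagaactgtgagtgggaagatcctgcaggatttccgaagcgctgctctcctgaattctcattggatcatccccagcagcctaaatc
Motifs of 3 kinds were searched on both strands of the promoters of 25 of the 35 members, and the other 10 were not searched. Of the 25 searched, the cyclic AMP response element TGACGTCA was found in Th only, at 45 to 38 bases before its start. It was found in 1.55% of all 32851 promoters. TATAAA was found in Ddc, Prph and Slc5a7, and in 12.4% of all promoters. In Prph it lay 31 to 26 bases before the start, the usual place of a TATA box, and in Slc5a7 187 to 182 bases before it. CAGCACC, a stretch of the RE1 element that the neuronal silencer REST binds, was found in Dner, Sv2c and Tubb3 and in 5.73% of all promoters. These are matches of letters and were not tested as sites.

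Schwann cell genes were at similar or lower levels in the EPO libraries, apart from Mag. Over all classes, 2 of the 32 tested members were called higher and 7 lower, against 12.9% and 10.1% of all tested genes, and nothing is read from that because the members were chosen with this contrast known. Of the 13 Schwann cell genes, 3 were called lower (Gldn, Prx and Cdh19), none was called higher, and 10 were not called. The median log2 fold change of the 13 was -0.54, and without Vehicle 3 it was -0.48. The EPO libraries of 2 members (Slc5a7 and Brinp3) all lay above the Vehicle libraries, as for 22.9% of all tested genes, and those of 11 members all lay under them. In 6 of the 13 Schwann cell genes every EPO library lay under every Vehicle library, as it did for 3465 (21.0%) of all tested genes, and in the other 7 the groups overlapped. Summed over the class, the level was 410, 385 and 416 CPM in Vehicle 1 to 3 and 357, 260 and 293 CPM in EPO 1 to 3, so that the highest EPO library was under the lowest Vehicle library. Pmp22 alone gave 138 to 223 CPM of these sums.

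Gldn encodes gliomedin, which Schwann cells place at nodes of Ranvier to gather axonal sodium channels, and it had the largest difference of the class. It stood at 22.3, 17.1 and 17.3 CPM in Vehicle 1 to 3 and at 3.54, 3.84 and 6.97 CPM in EPO 1 to 3. The groups lay far apart, with a mean of 18.9 ± 2.95 CPM (SD, n = 3) against 4.78 ± 1.90 CPM (SD, n = 3), which is 3.95-fold lower with EPO. Its log2 fold change was -1.98 (SE 0.29), and it was -2.04 without Vehicle 3. Gldn was called lower under all 14 alternative settings. The gene lies at chr9:54286486-54341786 on the plus strand (GRCm38).

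Prx encodes periaxin, a protein of the myelinating Schwann cell that links its membrane to the basal lamina. Its level was 20.2, 11.7 and 19.0 CPM in Vehicle 1 to 3 and 7.86, 6.65 and 8.93 CPM in EPO 1 to 3, a difference of 2.17-fold with a log2 fold change of -1.12 (SE 0.24). Cdh19, a cadherin of the Schwann cell lineage, had 3.43, 4.12 and 4.87 CPM in Vehicle 1 to 3 and 1.70, 1.56 and 2.53 CPM in EPO 1 to 3. The groups did not overlap for either gene. The log2 fold change of Cdh19 was -1.10 (SE 0.29), and its fold 2.15. Both calls were lost with any of several libraries left out, while the log2 fold changes in those fits moved little. The call of Prx was lost without Vehicle 1 (-1.002), Vehicle 3 (-1.03) or EPO 2 (-1.01). The call of Cdh19 was lost without Vehicle 1 (-1.25), Vehicle 2 (-1.12), Vehicle 3 (-0.97), EPO 1 (-1.03) or EPO 2 (-0.97).

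A further 3 genes of the class had EPO libraries under all Vehicle libraries without being called. Ncmap, a protein of non-compact myelin, ranged from 0.565 to 0.932 CPM in Vehicle and from 0.251 to 0.511 CPM in EPO. Gfra3, the artemin receptor subunit, ranged from 2.76 to 3.56 CPM in Vehicle and from 1.78 to 2.16 CPM in EPO. Scn7a, an atypical sodium channel found in Schwann cells and other supporting cells, ranged from 49.0 to 51.2 CPM in Vehicle and from 28.2 to 49.0 CPM in EPO, with EPO 3 almost at the level of Vehicle 1. The log2 fold changes of these 3 were -1.11 (SE 0.42), -0.71 (SE 0.25) and -0.48 (SE 0.21). Scn7a was called lower without EPO 3 (-0.77).

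The lineage factor and the structural myelin genes overlapped between groups. Sox10, the transcription factor that defines the lineage, was measured at 3.65, 3.15 and 5.69 CPM in Vehicle 1 to 3 and at 3.21, 2.10 and 2.92 CPM in EPO 1 to 3 (log2 fold change -0.60, SE 0.31). Mbp, myelin basic protein, had a mean of 26.6 ± 6.09 CPM (SD, n = 3) in Vehicle and 25.3 ± 6.12 CPM (SD, n = 3) in EPO, a difference far under the spread of either group. Cnp, an enzyme of myelin membranes, and L1cam, an adhesion molecule of unmyelinated fibres, had log2 fold changes of -0.08 (SE 0.19) and -0.04 (SE 0.29). S100b, a calcium-binding protein of glia, fat cells and cartilage, had 16.0, 22.8 and 11.1 CPM in Vehicle 1 to 3 and 13.1, 12.3 and 8.72 CPM in EPO 1 to 3, and was the gene of the class with the lowest Vehicle 3 relative to the other Vehicle libraries. Pmp22, a membrane protein of compact myelin that many other cells also make, averaged 213 ± 9.39 CPM (SD, n = 3) in Vehicle and 164 ± 37.1 CPM (SD, n = 3) in EPO, with EPO 1 at 206 CPM inside the Vehicle range, and it was called lower without EPO 1 (log2 fold change -0.59). Mag, the myelin-associated glycoprotein at the axon surface, was the one gene of the class with a positive log2 fold change (0.58, SE 0.32). It ran from 1.52 to 1.97 CPM in Vehicle and from 1.73 to 3.32 CPM in EPO.

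Noradrenergic genes were high in 1 library, Vehicle 3, and low in the other 5. The 4 enzymes and transporters summed to 11.3, 5.87 and 135 CPM in Vehicle 1 to 3 and to 2.79, 4.21 and 8.15 CPM in EPO 1 to 3. None of the 4 was called, although their median log2 fold change was -4.03. Without Vehicle 3 that median was -1.05, and again none was called.

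Th had 1.30, 0.194 and 30.4 CPM in Vehicle 1 to 3 and 0.167, 0 and 0.571 CPM in EPO 1 to 3. These values come from 30, 5 and 881 counts against 6, 0 and 19 counts, so that Vehicle 3 held 96.2% of the Vehicle counts. Vehicle 2 lay under EPO 3, so the groups overlapped. The log2 fold change of Th was -5.39 (SE 1.82) with all libraries and -1.56 without Vehicle 3. Without Vehicle 2, the Vehicle library with the least Th, it was -5.99 and the gene was called lower.

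Dbh followed the same order of libraries, with 3.91, 0.428 and 62.0 CPM in Vehicle 1 to 3 and 0.251, 0.0339 and 1.62 CPM in EPO 1 to 3. Vehicle 3 held 94.7% of its Vehicle counts, and its log2 fold change of -5.10 (SE 1.77) was -1.75 without that library and -5.70 without Vehicle 2, where it too was called. Ddc, which cells other than neurons also use, stood at 2.04, 0.700 and 25.3 CPM in Vehicle 1 to 3 and at 0.530, 0.984 and 2.10 CPM in EPO 1 to 3. With Vehicle 3 left out, its log2 fold change went from -2.96 (SE 1.24) to -0.18. Slc18a2 was the gene of the 4 with separate groups, at 4.04, 4.55 and 17.3 CPM in Vehicle 1 to 3 and at 1.84, 3.19 and 3.85 CPM in EPO 1 to 3. Its log2 fold change was -1.55 (SE 0.60), and -0.54 without Vehicle 3. In EPO 2, Slc18a2 had 94 counts where Th had 0 and Dbh had 1, so it did not follow those genes there. Which cells made it was not tested.

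**Figure D2:**
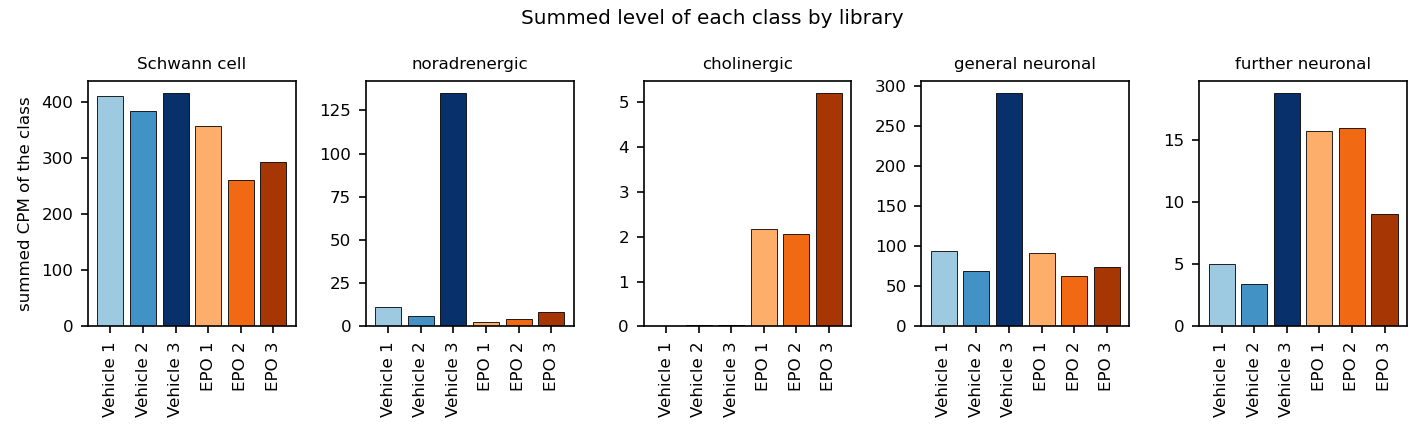
Summed CPM of each of the 5 member classes, 1 panel per class with its own linear axis from 0 and 1 bar per library, Vehicle in blue and EPO in orange. The noradrenergic sum is 135 CPM in Vehicle 3 and between 2.79 and 11.3 CPM in the other 5 libraries, while the Schwann cell sum lies between 260 and 416 CPM in all 6.

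Th, Snap25 and Syt1 stood in similar proportion to Dbh in the Vehicle libraries although their levels differed widely. Per 100 counts of Dbh, Th had 33.3, 45.5 and 49.0 counts in Vehicle 1 to 3 and 35.2 in EPO 3. Snap25 had 28.9, 36.4 and 31.9 in Vehicle 1 to 3 and 38.9 in EPO 3, and Syt1 had 33.3, 45.5 and 26.4 and, in EPO 3, 24.1. Ratios are not given for EPO 1 and EPO 2, which had 9 and 1 counts of Dbh, and Vehicle 2 had 11. The proportions of other genes varied more, and Th, Snap25 and Syt1 were singled out after the ratios were seen. Ddc had 52.2, 164 and 40.7 counts per 100 of Dbh in Vehicle 1 to 3 and 129.6 in EPO 3, and Sv2c 26.7, 90.9 and 10.9 in Vehicle 1 to 3. Prph had 74.4, 282 and 51.0 counts per 100 of Dbh in Vehicle 1 to 3, Dner 73.3, 418 and 10.02, and Hpca 27.8, 291 and 9.40. The counts behind Vehicle 2 are few, and no test was made of these ratios.

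General neuronal genes were also highest in Vehicle 3, but not all were low in the other 5 libraries. Vehicle 3 was the highest library for all 10 tested members of the class and was at least 5 times the mean of the other Vehicle libraries for 7 of them. Of the 10, 1 (Syp) was called lower, near the 10.1% of all tested genes. None was called higher, against 12.9% of all tested genes. The median log2 fold change of the 10 was -2.55, and -0.66 without Vehicle 3.

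Snap25 and Syt1, the membrane component and the calcium sensor of vesicle release, were low outside Vehicle 3. Snap25 had 1.13, 0.156 and 19.8 CPM in Vehicle 1 to 3 and 0.0837, 0 and 0.631 CPM in EPO 1 to 3. Syt1 had 1.30, 0.194 and 16.4 CPM in Vehicle 1 to 3 and 0.0558, 0 and 0.391 CPM in EPO 1 to 3. Vehicle 3 held 95.03% and 93.1% of their Vehicle counts, and Vehicle 2 lay under EPO 3 for both. Their log2 fold changes were -4.85 (SE 1.76) and -5.27 (SE 1.69), and -1.39 and -2.27 without Vehicle 3. Syt1 was called lower without Vehicle 2 (-5.86).

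Filament genes followed. Prph encodes peripherin, the intermediate filament of peripheral neurons, and stood at 2.91, 1.21 and 31.6 CPM in Vehicle 1 to 3 and at 1.06, 0.747 and 1.44 CPM in EPO 1 to 3. Its log2 fold change was -3.46 (SE 1.15), -0.92 without Vehicle 3, and -4.01 without Vehicle 2, where it was called lower. Of the neurofilament genes, Nefm had 1.26, 0.156 and 11.4 CPM in Vehicle 1 to 3 and at most 0.451 CPM in EPO (log2 fold change -4.45, SE 1.49), and was called lower without Vehicle 2 (-5.04) but not without Vehicle 3 (-1.85). Nefl had 0.435, 0 and 8.59 CPM in Vehicle 1 to 3 and at most 0.421 CPM in EPO, and its log2 fold change of -3.60 (SE 1.60) was 0.21 without Vehicle 3. Nefh had 0.348, 0 and 4.21 CPM in Vehicle 1 to 3 and at most 0.301 CPM in EPO, too few counts for the fit. Nefl and Nefm lie on opposite strands of chromosome 14 and share 1108 exon bases (32.8% of Nefl, 19.2% of Nefm), so counts of the pair are uncertain where strand was not used.

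Syp, synaptophysin of the synaptic vesicle membrane, was the general neuronal gene whose difference did not rest on Vehicle 3. It had 7.47, 7.35 and 14.6 CPM in Vehicle 1 to 3 and 3.40, 3.02 and 2.98 CPM in EPO 1 to 3. The EPO libraries, with a mean of 3.13 ± 0.234 CPM (SD, n = 3), were all under the Vehicle libraries, with a mean of 9.81 ± 4.15 CPM (SD, n = 3). The log2 fold change was -1.65 (SE 0.31), and -1.24 without Vehicle 3, where the gene was still called. Of its exon bases, 16.8% are shared with the gene model Gm14703.

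Tubb3, Stmn2 and Gap43, which growing axons use, did not have the low EPO values of the synaptic genes. Tubb3, a neuronal tubulin, had 7.82, 9.41 and 51.0 CPM in Vehicle 1 to 3 and 21.9, 18.8 and 16.0 CPM in EPO 1 to 3, so every EPO library lay between Vehicle 3 and the other Vehicle libraries. With all libraries its log2 fold change was -0.27 (SE 0.66), and without Vehicle 3 it was 1.13 and the gene was called higher, 2.19-fold over the mean of Vehicle 1 and Vehicle 2. Stmn2, a regulator of microtubules, had 12.3, 7.78 and 32.2 CPM in Vehicle 1 to 3 and 13.8, 10.3 and 9.47 CPM in EPO 1 to 3. Gap43, a growth cone protein also made by immature Schwann cells, had 2.04, 1.05 and 11.6 CPM in Vehicle 1 to 3 and 2.68, 1.29 and 7.21 CPM in EPO 1 to 3. Neither was called with or without Vehicle 3, and the log2 fold changes without it were 0.16 and 1.27. Uchl1, an abundant neuronal ubiquitin hydrolase, ranged from 42.0 to 89.9 CPM in Vehicle and from 28.4 to 48.4 CPM in EPO, with overlapping groups (log2 fold change -0.75, SE 0.30). Of the exon bases of Uchl1, 18.1% are shared with its antisense gene Uchl1os.

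**Figure D3:**
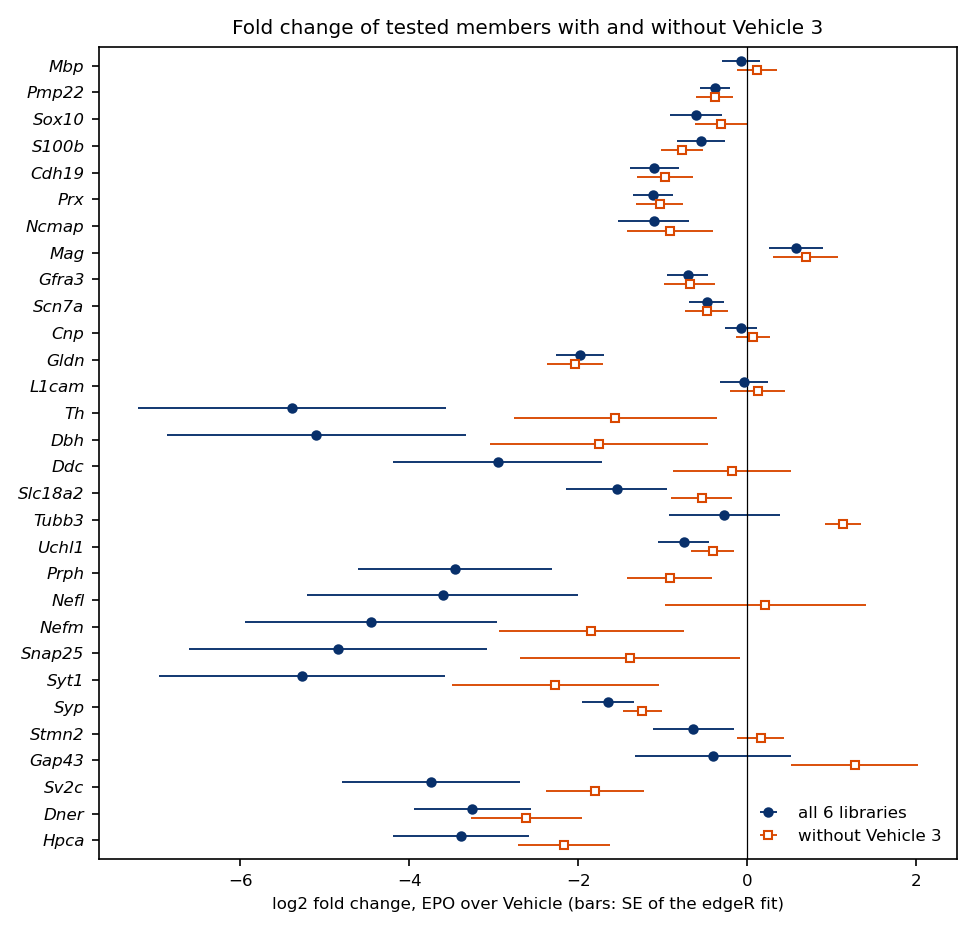
Log2 fold change (EPO against Vehicle) of each tested member with all 6 libraries and without Vehicle 3, with bars of 1 SE, in order of class, leaving out Slc5a7 and Brinp3 whose fitted values depend on the prior count. The 4 noradrenergic values are closer to 0 without Vehicle 3, Tubb3 goes from -0.27 to 1.13 and Gap43 from -0.40 to 1.27, and Gldn is at -1.98 and -2.04.

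The 3 cholinergic genes did not share a pattern. Slc5a7, the high-affinity choline transporter, had 0 counts in all 3 Vehicle libraries and 78, 61 and 173 counts in EPO 1 to 3, which is 2.18, 2.07 and 5.20 CPM (3.15 ± 1.78, SD, n = 3). Set against a floor of 3 counts over the Vehicle group, it was at least 82.0-fold higher with EPO, and it was called higher under all 14 alternative settings. Chat had 1 count in total, in Vehicle 3, and Slc18a3 had 1 count in total, in Vehicle 2. The 2 genes that a cholinergic neuron needs to make and load acetylcholine were thus at or under the detection floor in the same EPO libraries in which Slc5a7 was counted. Slc18a3 lies inside the span of Chat at chr14:32462438-32464850, and Slc5a7 lies at chr17:54273590-54299034, both on the minus strand. Per kilobase of exon, the EPO mean of Slc5a7 was 0.558 CPM per kb, which placed it 19th of the 35 members, against the last place in Vehicle.

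The 4 further neuronal genes were all called, 3 lower and 1 higher, against 10.1% and 12.9% of all tested genes. Nothing is read from that count, since these genes were listed and grouped with this contrast known. Sv2c, a synaptic vesicle protein, had 1.04, 0.389 and 6.76 CPM in Vehicle 1 to 3 and 0.251, 0.170 and 0.180 CPM in EPO 1 to 3. Dner, a transmembrane ligand of Notch in neurons, had 2.87, 1.79 and 6.21 CPM in Vehicle 1 to 3 and 0.139, 0.272 and 0.721 CPM in EPO 1 to 3. Hpca, the calcium sensor hippocalcin, had 1.09, 1.24 and 5.83 CPM in Vehicle 1 to 3 and 0.112, 0.306 and 0.361 CPM in EPO 1 to 3. For all 3 genes every EPO library was under every Vehicle library, and Vehicle 3 was the highest. Against the mean of Vehicle 1 and Vehicle 2 alone, the EPO mean was 3.57-fold lower for Sv2c, 6.17-fold lower for Dner and 4.49-fold lower for Hpca.

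The log2 fold changes of Dner and Hpca were -3.25 (SE 0.69) and -3.39 (SE 0.81), and without Vehicle 3 they were -2.61 and -2.17 and both genes were still called. The call of Dner was lost without EPO 2 (-3.07), and that of Hpca without EPO 1 (-3.03) or EPO 2 (-3.52). Sv2c had a log2 fold change of -3.74 (SE 1.05), and its call was lost without Vehicle 1 (-4.16), Vehicle 3 (-1.80), EPO 1 (-3.95), EPO 2 (-3.64) or EPO 3 (-3.67).

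Brinp3, a gene that restrains the cell cycle in neural cells and is also expressed outside neurons, was the second member seen almost wholly in EPO libraries. It had 1, 0 and 0 counts in Vehicle 1 to 3 and 548, 449 and 260 counts in EPO 1 to 3, or 15.3, 15.2 and 7.82 CPM (12.8 ± 4.30, SD, n = 3). The ratio of the groups was 991, with a 95% counting interval of 178 to 39170. EPO 3 was its lowest EPO library and the highest for Slc5a7, so the order of EPO libraries differed between these 2 genes. The gene spans chr1:146494760-146902472 on the plus strand and was called higher under all 14 alternative settings.

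Levels between genes were compared per kilobase of exon. In Vehicle the order of means began with Pmp22 (90.6 CPM per kb), Uchl1 (38.6), Tubb3 (12.2), S100b (11.2), Cnp (9.25) and Dbh (8.22), with Prph (5.96) 8th and Th (4.50) 9th. In EPO it began with Pmp22 (69.6 CPM per kb), Uchl1 (22.9), Tubb3 (10.1), Cnp (8.77) and S100b (7.68). Dbh was then 23rd, Th 25th and Prph 20th, while Brinp3 went from 34th to 10th (1.82). The places of Tubb3, Dbh, Th and Prph in Vehicle rest on Vehicle 3. Over Vehicle 1 and Vehicle 2 alone Tubb3 had 4.61 CPM per kb, under S100b (13.1), Cnp (8.35) and Scn7a (6.83). With all libraries, neighbours such as Tubb3 and S100b in Vehicle do not differ beyond the spread of the libraries.

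Other genes of the same cells and pathways were taken from 6 lists of 124 genes chosen by their known roles. These lists too were drawn up with earlier results of these data known, so they are not independent support for the members. Of these, 88 were tested, 9 were called higher and 24 lower, against 12.9% and 10.1% of all tested genes. The calls counted for each list below stand against the same shares. Vehicle 3 was at least 5 times the mean of the other Vehicle libraries for 12 of the 88. With the 12 members this makes 24 genes, where 88 of all 16522 tested genes reached that ratio. Among the 15 tested genes of the other noradrenergic list, Vehicle 3 was the highest library for 11 and reached 5 times the mean of the other Vehicle libraries for 4. The noradrenaline reuptake transporter Slc6a2 had 6.82, 2.41 and 45.2 CPM in Vehicle 1 to 3 and at most 4.69 CPM in EPO. The ganglionic acetylcholine receptor subunit Chrna3 had 0.826, 0.117 and 8.11 CPM in Vehicle 1 to 3 and at most 0.0902 CPM in EPO.

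Of the 26 tested genes in the list of other myelin and Schwann cell genes, 3 were called higher and 5 lower, with a median log2 fold change of -0.59 (-0.24 without Vehicle 3). Vehicle 3 was the highest library for 18 of the 26 and at least 5 times the mean of the other Vehicle libraries for 3. Over all tested genes these shares were 9.61% and 0.533%. The list also holds genes of the axon, such as Cntnap2, and which cells made the RNA was not tested. Nfasc, a partner of gliomedin at the node, rose from 9.42 ± 1.13 to 26.6 ± 4.03 CPM (SD, n = 3; edgeR adjusted p = 0.00263). Ncam1, an adhesion molecule of non-myelinating Schwann cells and of other tissues, fell from 348 ± 43.8 to 128 ± 28.8 CPM (SD, n = 3; edgeR adjusted p = 0.00399), and Art3 fell from 80.8 ± 6.48 to 31.3 ± 8.62 CPM (SD, n = 3; edgeR adjusted p = 0.00483).

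Of 15 tested genes in the list of other noradrenergic genes, 1 was called higher and 3 lower (median log2 fold change -0.82, and -0.59 without Vehicle 3). Those lower were Gata3, a factor of sympathetic and immune cells (log2 fold change -1.63, edgeR adjusted p = 0.00958), the amine-degrading Maoa (-1.01, edgeR adjusted p = 0.0164) and Cyb561 of secretory vesicles (-0.84, edgeR adjusted p = 0.0196), whose call was lost without EPO 2 (-0.73). The 1 higher was Chga, chromogranin A, with 0.304, 1.01 and 1.31 CPM in Vehicle 1 to 3 and 6.33, 6.69 and 2.10 CPM in EPO 1 to 3 (edgeR adjusted p = 0.0247), opposite to Th and Dbh. Its call was lost without Vehicle 1, Vehicle 2, EPO 1 or EPO 2, with log2 fold changes from 2.08 to 2.58.

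Of 5 tested genes in the list of other cholinergic genes, 1 was called higher and 2 lower, and the median log2 fold change of -1.497 was not stable. It was 1.18 without Vehicle 1, -0.25 without Vehicle 2, 0.72 without Vehicle 3 and -0.29 without EPO 3, with 7 or 8 genes tested. The acetylcholine-degrading Bche fell from 39.8 ± 6.69 to 8.22 ± 0.915 CPM (SD, n = 3; edgeR adjusted p = 0.00105), and Ache fell from 8.35 ± 4.38 to 2.45 ± 0.517 CPM (SD, n = 3; edgeR adjusted p = 0.0175). The call of Ache was lost without EPO 2 (-1.74 on the log2 scale). Musk, a kinase of the neuromuscular junction, was called higher at 1.46 on the log2 scale (edgeR adjusted p = 0.0456), a call that did not hold in 10 of 13 alternatives, among them leaving out any 1 library other than EPO 3 (1.19 to 1.69). Vip, a peptide of cholinergic sympathetic fibres, had at most 7 counts in any library.

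Of 26 tested pan-neuronal and synaptic genes, 1 was called higher and 9 lower (median log2 fold change -0.96). Ncald, a relative of hippocalcin, fell by 1.55 on the log2 scale (edgeR adjusted p = 0.00277), Tubb4a by 1.503 (edgeR adjusted p = 0.00453) and the vesicle protein Vamp2 by 1.03 (edgeR adjusted p = 0.00765), and each was still called with any 1 library left out. Without Vehicle 3 the list had 2 called higher and 5 lower of 27 tested. The 1 called higher with all libraries was Tubb2b, a tubulin of growing neurites, with 7.996, 6.30 and 18.7 CPM in Vehicle 1 to 3 and 23.8, 32.1 and 30.7 CPM in EPO 1 to 3 (edgeR adjusted p = 0.0395). Its log2 fold change of 1.39 was 2.01 without Vehicle 3, and its call was lost when any 1 of the other 5 libraries was left out (1.09 to 1.495). Of 12 sensory neuron genes only 3 were tested, with a median log2 fold change of -0.79 that was 0.16 without Vehicle 3, and none was called: P2rx3 (edgeR adjusted p = 0.174), Avil (edgeR adjusted p = 0.427) and Trpv1 (edgeR adjusted p = 0.555), while Calca had at most 12 counts in any library.

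Of 13 tested neurotrophic ligands and receptors, which guide and maintain these fibres, 3 were called higher and 5 lower, and Vehicle 3 was the highest library for none. Their median log2 fold change was -0.05, and with 1 library left out it ran from -0.62 (without EPO 1) to 0.20 (without EPO 2). Gfra1, the receptor subunit for GDNF, was measured at 3.82, 4.74 and 5.18 CPM in Vehicle 1 to 3 and at 34.4, 36.0 and 20.8 CPM in EPO 1 to 3, and rose 6.63-fold (edgeR adjusted p = 0.00166). Gdnf itself rose from 0.166 ± 0.0957 to 0.835 ± 0.148 CPM (SD, n = 3; edgeR adjusted p = 0.0137), a call lost without Vehicle 1 (1.99 on the log2 scale) or Vehicle 3 (2.16). The neurotrophin-3 receptor Ntrk3 fell from 188 ± 36.8 to 57.1 ± 17.4 CPM (SD, n = 3; edgeR adjusted p = 0.00511), its ligand Ntf3 from 34.0 ± 5.13 to 10.2 ± 4.59 CPM (SD, n = 3; edgeR adjusted p = 0.0119), and the receptor Ntrk2 from 68.4 ± 12.9 to 31.4 ± 3.54 CPM (SD, n = 3; edgeR adjusted p = 0.00498). Gdnf, Ntf3, Slc6a2, Chrna3, Chga and Tubb2b were chosen for naming after their values were seen.

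**Figure D4:**
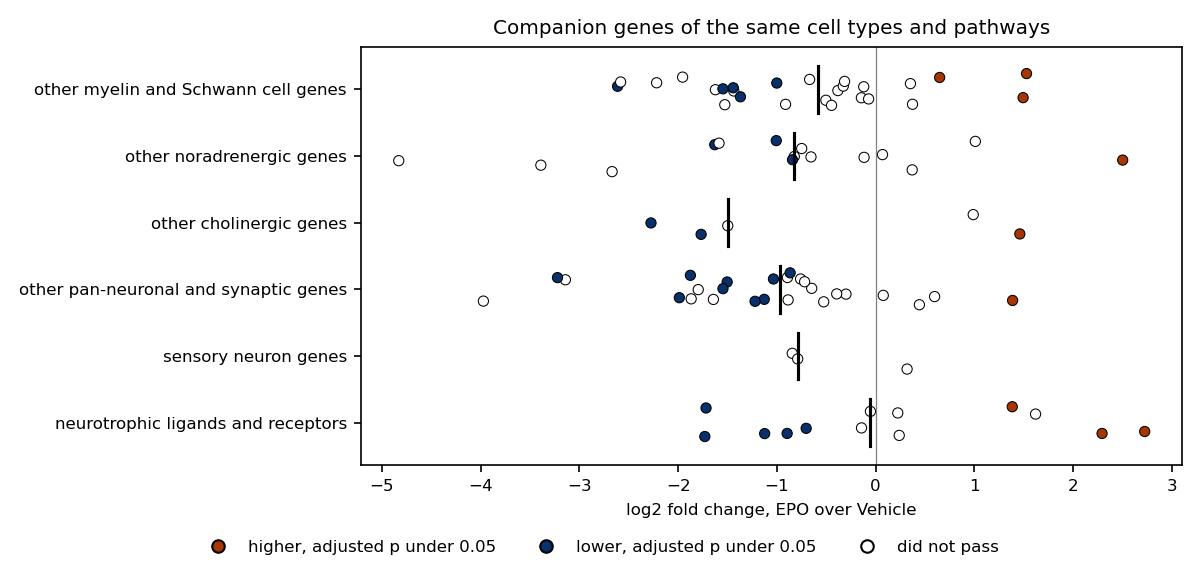
Log2 fold change (EPO against Vehicle) of each tested gene of the 6 lists, 1 point per gene, filled where called (orange higher, blue lower), with a bar at each list's median. With all libraries the medians lie between -1.497 (other cholinergic, of 5 genes, above 0 without Vehicle 1 or Vehicle 3) and -0.05 (neurotrophic), and the neurotrophic list holds both Gfra1 at 2.73 and Ntf3 at -1.73.

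Markers of other tissues that lie beside the aorta or share genes with nerve were summed in each library. The calls counted for these lists stand against 12.9% (higher) and 10.1% (lower) of all tested genes. Adrenal gland, which also makes Th and Dbh, summed to 5.30 to 5.52 CPM in Vehicle and 3.97 to 6.16 CPM in EPO over 10 genes. The sum of Vehicle 3 was 5.52 CPM, as in Vehicle 2, but Star made most of it (3.39, 4.16 and 3.31 CPM in Vehicle 1 to 3). Of the 4 tested genes, Vehicle 3 was the highest library for 2, Pnmt and Mc2r, and reached 5 times the mean of the other Vehicle libraries for 0. The 6 genes not tested had at most 5 counts in either group, with Cyp11b2 and Hsd3b1 at 0 in all libraries. Pnmt, which turns noradrenaline into adrenaline in the adrenal medulla, had 0.739, 0.583 and 1.001 CPM in Vehicle 1 to 3 and at most 0.120 CPM in EPO, and it was the 1 gene of 4 tested that was called (lower, edgeR adjusted p = 0.00483). Melanocyte genes, some of which neural crest cells share, summed to 25.7 to 29.6 CPM in Vehicle and 25.1 to 29.0 CPM in EPO. Mitf alone made most of these sums, at 22.9 to 27.5 CPM in each library. Of 3 tested genes 0 were called in either direction, and Dct was at 8 counts or fewer and Tyr at 5 or fewer. The remaining lists differed between groups more widely. Skeletal muscle genes were called higher in 11 of 11 tested, with sums of 8.55 to 15.9 CPM in Vehicle and 1274, 3094 and 399 CPM in EPO 1 to 3. EPO 3, with the least skeletal muscle RNA of the EPO libraries, had the most Slc5a7 and the least Brinp3. The muscle acetylcholine receptor subunit Chrnd had 1.06, 3.43 and 0 CPM in EPO 1 to 3 and no count in Vehicle.

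Of the other lists, white adipocyte genes were called lower in 6 of 10 tested (3204 to 7672 CPM in Vehicle, 1997 to 2438 CPM in EPO), brown adipocyte genes lower in 2 of 5 (606 to 1975 against 385 to 842 CPM) and smooth muscle genes lower in 6 of 6 (18888 to 26969 against 7020 to 8773 CPM). Chondrocyte genes were called higher in 5 of 7 (111 to 213 against 507 to 800.4 CPM), macrophage genes in 2 of 8 (1502 to 3098 against 3363 to 6997 CPM) and cell cycle genes in 6 of 6 (18.1 to 32.7 against 146 to 179 CPM). Vehicle 3 was the lowest Vehicle library for both adipocyte lists, at 3204 and 606 CPM. The part of these tissues in the values of the nerve genes was not tested.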

How the data were processed

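RNA of the aorta was measured in 3 EPO and 3 Vehicle libraries. The values are the authors' deposited read counts per Ensembl gene, whole numbers without normalization. A NEBNext Ultra kit and paired-end reads were used, per the labels' protocols. Per the submitters' processing notes, CASAVA 1.8 and TopHat2 2.0.6 were used with mm10. How reads were counted, with which annotation and whether by strand, is not given in the sources used here, so genes that overlap on opposite strands are uncertain. The columns named Con were read as Vehicle.

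Symbols, exon lengths and coordinates came from GENCODE M21 on GRCm38, the assembly of mm10, for 47224 of 47643 IDs. In R 4.3.3, edgeR 4.0.16 removed low counts (filterByExpr, leaving 16522 genes that hold 99.9% of the counts), scaled libraries by TMM and fitted a quasi-likelihood model with group as its term. The test was two-sided, adjusted by Benjamini-Hochberg over all genes tested. Every adjusted p is from that test. SE is the log2 fold change divided by the square root of F. Intervals and floors cover counting error only. On simulated counts, the procedure recovered 62 of 100 2-fold changes and 96 of 100 4-fold changes, and 6 of its 164 calls were false. Genes of low count were not among those changed, and no library was made to stand apart. The simulation therefore does not cover genes such as Th or Snap25, and a gene not called may still differ.

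The members and lists were chosen with earlier results of these data known. Named are all members, up to 3 tested genes of smallest p per list of the same pathways, and genes that decide whether a cell type is there; other genes are named as such or serve to describe a library. Of the other cell type lists (adrenal gland, melanocyte, skeletal muscle, white and brown adipocyte, chondrocyte, macrophage, smooth muscle, cell cycle), sums and counts are given in place of single genes. The 14 alternatives were RLE scaling, library size alone, no filter, a filter of 1 CPM in 3 libraries, DESeq2 1.42.0, limma-voom (limma 3.58.1), the replicate number as a block, each library left out, and EPO 1 and EPO 2 left out together. Some genes are not reported here.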

Additional observations from a re-analysis of the deposited data

How the results depend on the processing

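The 7 members called lower became 15 with no filter on low counts, 14 with DESeq2, 11 with the replicate number as a block and 1 without EPO 1 and EPO 2, and ranged from 2 to 11 with 1 library left out. The 24 genes lower in the 6 lists of related genes became 42 with no filter, 37 with DESeq2 and 9 without EPO 1 and EPO 2 (16 to 26 with 1 library left out), and the 9 higher became 4 without EPO 1 and EPO 2 (3 to 9 with 1 left out). Over all genes, 1085 were higher and 463 lower without EPO 1 and EPO 2. With 1 library left out these counts ran from 936 to 2265 and from 699 to 2016, and the members called higher from 2 to 3. Class medians moved most without Vehicle 3, to -1.05 for noradrenergic, -0.66 for general neuronal and -1.98 for further neuronal genes. With 1 library left out they ranged from -5.23 to -1.05, from -2.93 to -0.66 and from -3.69 to -1.98, and from -0.65 to -0.44 for Schwann cell genes. With a filter of 1 CPM, which leaves fewer genes, the general neuronal median was -0.70. Of the log2 fold changes of single genes under the alternatives, 692 kept their side of the threshold, 36 gained a call and 57 lost one. A further 1, called in the alternative, reversed (Tubb3, 1.13 without Vehicle 3, and -0.71 to 1.13 with 1 library left out). Changes of sign in genes called in neither fit are among the 692, such as Nefl (0.21) and Gap43 (1.27) without Vehicle 3. The cause of these shifts was not tested beyond the libraries and filters named.

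Same-numbered libraries of the groups did not deviate together, with correlations of -0.0088, -0.0098 and 0.127, so the numbers were not taken as pairs. With the replicate number as a block, 1630 genes were higher and 1254 lower, and Th, Dbh, Nefm, Snap25 and Syt1 were called lower (-4.83, -4.74, -4.10, -4.63 and -5.14) while Sv2c was not, as also with limma-voom (-2.80).

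Low counts limit Chat, Slc18a3 and the neurofilament genes outside Vehicle 3. DESeq2 called Gfra3, Th, Dbh, Slc18a2, Prph, Nefm and Syt1 lower as well as the 7, which edgeR did not with all libraries.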
